A study of Mus musculus with 16 samples.

Results

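The 5 tumors with the most and the 5 with the least Mycl RNA were compared among 15 mouse small cell lung tumors, of 16 in the series. Mycl encodes L-MYC, a basic helix-loop-helix leucine zipper transcription factor that pairs with MAX and binds E-box DNA, as c-MYC and N-MYC do. In human small cell lung cancer, a neuroendocrine tumor, the MYCL locus is known for recurrent amplification, and in mouse models Mycl is known to promote neuroendocrine lung tumors. MYC-family factors are known to drive ribosome production and nucleotide synthesis.

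Bulk RNA had been sequenced from 16 lung tumors, 8 labelled sgKdm5a RPP and 8 labelled sgControl RPP. Each mouse carried a Cre-inducible Cas9 transgene at the H11 locus (H11-LSL-Cas9, strain B6;129), received adenovirus through the trachea at 2 to 4 months of age, and had lung tumors taken at the study endpoint. RPP is taken, from knowledge of the model, as guides against tumor suppressor genes, Rb1 and Rbl2 among them, which both labels share, and sgKdm5a adds a guide against Kdm5a, a histone demethylase. The file header gives each column the number of a mouse, so each library was read as 1 animal, and the labels do not say which infected cell type a tumor came from.

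The tumors were selected on a measured value. The library of sgControl RPP tumor 1 was left out because its median was 2.38 FPKM (fragments scaled to transcript length and library size), against 10.0 to 12.4 FPKM in the other 15. Each remaining library was divided by its own median, the 15 tumors were ranked by Mycl, and the top 5 and bottom 5 were taken, which left 5 between them. Mycl-high tumors were sgControl RPP tumor 7, sgKdm5a RPP tumors 5, 2 and 3 and sgControl RPP tumor 6, in falling order. Mycl-low tumors were sgControl RPP tumor 5, sgKdm5a RPP tumors 8 and 1, sgControl RPP tumor 4 and sgKdm5a RPP tumor 4. Both sides held 3 sgKdm5a RPP and 2 sgControl RPP tumors (two-sided Fisher's exact test, p = 1), so the sgRNA label did not separate them. All other values below are scaled FPKM, the deposited FPKM divided by the library median and multiplied by the mean median of the 15 libraries, 11.6 FPKM. Depth is unknown for FPKM, so error is the spread between tumors. The differences described are associations with Mycl RNA across tumors in which no one had set its level.

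Mycl spanned a continuous range rather than separate classes. As multiples of the library median it stood at 26.4, 19.1, 14.8, 8.92 and 8.78 in Mycl-high tumors, against 2.67, 2.59, 1.78, 1.15 and 0.950 in Mycl-low tumors. The 5 tumors between them had 8.70, 5.77, 5.41, 4.35 and 2.91. The cut on the high side passed between values that differed by 1.01-fold (sgControl RPP tumor 6 inside, sgControl RPP tumor 3 outside), and the cut on the low side between values that differed by 1.09-fold. These values chose the groups and carry no test, and Mycl is left out of every comparison below.

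**Figure D1:**
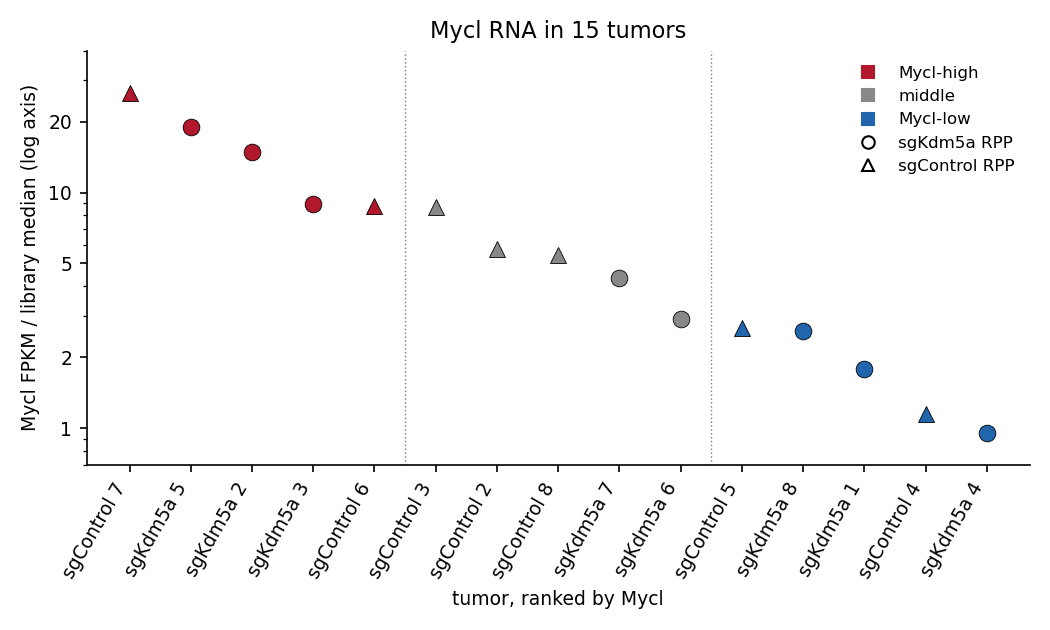
Mycl in each of 15 tumors as a multiple of the library median (log axis), in rank order, with circles for sgKdm5a RPP and triangles for sgControl RPP. The 5 Mycl-high tumors lie between 26.4 and 8.78, the 5 Mycl-low tumors between 2.67 and 0.950, and the dotted lines mark where the ranking was divided.

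Both sides were neuroendocrine tumors by their markers. Insm1, a zinc finger factor of neuroendocrine cells, averaged 114 ± 21.6 in Mycl-high and 139 ± 52.9 in Mycl-low tumors (SD, n = 5 each, limma adjusted p = 0.664). The granin Chga averaged 707 ± 677 in Mycl-high and 787 ± 471 in Mycl-low tumors (SD, n = 5 each, limma adjusted p = 0.897). Neurod1, a neuronal transcription factor gene that marks one neuroendocrine type, was too low overall to be tested and reached 25.6 in the Mycl-high sgKdm5a RPP tumor 2 and 9.83 in the Mycl-low sgKdm5a RPP tumor 1.

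Across 13103 genes tested with limma, 270 were higher in Mycl-high tumors (2.06%) and 148 were lower (1.13%) at an adjusted p under 0.05. At an unadjusted p under 0.05 the counts were 1687 higher and 1277 lower. Without scaling to the median the split was 192 higher and 178 lower, and with quantile normalization 190 higher and 120 lower. All 418 called genes kept their direction in all 26 alternative analyses. Most of these reuse the tumors that gave the calls, so a kept direction is little support. The counts changed when any 1 tumor was left out, which also leaves fewer tumors to test. Leaving out sgControl RPP tumor 7, sgKdm5a RPP tumor 5, sgKdm5a RPP tumor 2, sgKdm5a RPP tumor 3 or sgControl RPP tumor 6 gave 160, 153, 106, 190 and 150 higher genes and 40, 65, 42, 113 and 55 lower genes. Leaving out sgControl RPP tumor 5, sgKdm5a RPP tumor 8, sgKdm5a RPP tumor 1, sgControl RPP tumor 4 or sgKdm5a RPP tumor 4 gave 133, 107, 87, 382 and 91 higher genes and 93, 44, 34, 294 and 45 lower genes. In all 10 of these runs, 77 of the higher and 25 of the lower genes kept their call. An interaction of side with sgRNA label called 0 genes with limma (970 at an unadjusted p under 0.05, smallest adjusted p = 0.211).

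The mouse numbers fall into a series 190 to 238 and a series 839 to 893, with 3 Mycl-high and 2 Mycl-low tumors in the first and 2 and 3 in the second. With the series as a covariate, 141 genes were higher and 64 lower. Within the series 190 to 238 alone, 0 genes were called by limma (471 higher and 572 lower at an unadjusted p under 0.05, smallest adjusted p = 0.206). Every called gene kept its direction there, but these tumors are a part of those that gave the calls.

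The largest block of higher genes lay on chromosome 4, around Mycl itself. Of 854 tested genes on that chromosome, 121 were higher (14.2%) and 5 were lower in Mycl-high tumors, and the median log2 difference was 0.40, against 0.02 for the genes of all other placed chromosomes. Elsewhere 148 genes were higher (1.21%) and 143 lower (1.17%) of 12183. Chromosome 4 thus held 45.0% of the placed genes that were higher. It also held 60 of the 77 higher genes that kept their call without any 1 tumor, and 34 of the 43 genes that were higher with a summary of macrophage, fibroblast and endothelial markers as a covariate. Gene order was read from the RefSeq table of assembly GRCm38.p6, while the deposited values were made on mm9, so distances are given in measured genes.

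The genes next to Mycl were mostly higher where it was high. Of the 10 measured genes on either side, 10 of 20 were expressed enough to be tested, and 3 passed. Trit1, the gene directly after Mycl, encodes a tRNA isopentenyltransferase. It stood at 31.85, 28.4, 43.8, 30.9 and 28.9 in Mycl-high tumors, against 7.23, 10.3, 7.22, 4.67 and 7.21 in Mycl-low tumors (log2 difference 2.04 ± 0.20 SE, limma adjusted p = 0.0021). Every Mycl-high tumor was above every Mycl-low tumor, an arrangement that 4.53% of all tested genes showed in this direction, and the exact two-sided permutation p was 0.00794, the smallest that 5 against 5 can give. Ppie, a spliceosomal cyclophilin, had 68.3, 108, 87.3, 99.7 and 122 in Mycl-high tumors, against 26.1, 33.6, 29.6, 26.4 and 22.6 in Mycl-low tumors (log2 difference 1.76 ± 0.18 SE, limma adjusted p = 0.00237). The groups were again apart.

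Rlf, a zinc finger gene on the other side of Mycl that is known as a fusion partner of MYCL in human tumors, had 23.4, 27.1, 36.2, 20.8 and 15.6 in Mycl-high tumors. In Mycl-low tumors it had 7.99, 7.42, 9.21, 9.56 and 9.37 (log2 difference 1.35 ± 0.21 SE, limma adjusted p = 0.00979). Trit1, Ppie and Rlf kept their call without any 1 tumor. Pabpc4, a poly(A)-binding protein gene, averaged 36.0 ± 17.8 in Mycl-high and 14.7 ± 2.15 in Mycl-low tumors without overlap (SD, n = 5 each, limma adjusted p = 0.0611). Cap1, an actin regulator, averaged 165 ± 56.8 in Mycl-high and 88.9 ± 12.4 in Mycl-low tumors (SD, n = 5 each, limma adjusted p = 0.083). Bmp8b, a bone morphogenetic protein gene, averaged 5.61 ± 3.59 in Mycl-high and 1.14 ± 1.32 in Mycl-low tumors (SD, n = 5 each, limma adjusted p = 0.0902). It lies 2 genes after Mycl, and its near-identical copy Bmp8a lies 9 genes after Mycl. Bmp8b reached the filter of 1 FPKM in 8 tumors only with Mycl-high tumors counted, so its difference adds little.

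Not every neighbour followed. Ppt1, a lysosomal thioesterase gene 3 genes before Mycl, averaged 30.5 ± 3.63 in Mycl-high and 29.2 ± 6.32 in Mycl-low tumors (log2 difference 0.08, 95% interval -0.30 to 0.45, limma adjusted p = 0.826), and its sign turned under other scalings (-0.0060 unscaled and -0.012 with quantile normalization). Zmpste24, a metalloprotease gene that processes lamin A, differed by 0.35 (limma adjusted p = 0.205), and Mfsd2a, a lysolipid transporter gene, by 0.52 (limma adjusted p = 0.417). Heyl, a NOTCH effector gene 7 genes after Mycl, averaged 2.59 ± 0.416 in Mycl-high and 4.35 ± 2.52 in Mycl-low tumors (SD, n = 5 each, limma adjusted p = 0.328). The other 10 neighbours were too low to be tested.

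The raised stretch reached far beyond the neighbours, by windows of which those past 60 genes were drawn after the values were seen. Within 10 genes of Mycl the median log2 difference was 0.96, with Bmp8b counted. From 11 to 30 genes away on both sides, 14 of 26 tested genes were higher (median 0.94), and from 31 to 60 genes away 14 of 36 (median 0.64). After Mycl, 32 of 72 tested genes were higher at 61 to 160 genes, 20 of 79 at 161 to 260 and 13 of 64 at 261 to 360. Beyond that point, to the last of 594 genes after Mycl, 0 of 137 were called higher by limma (23 at an unadjusted p under 0.05), and the window medians were 0.49, 0.42 and 0.30. Before Mycl, 19 of 63 were higher at 61 to 160 genes, 5 of 62 at 161 to 260 and 1 of 305 farther out, where the windows' medians ran from 0.46 to -0.18.

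**Figure D2:**
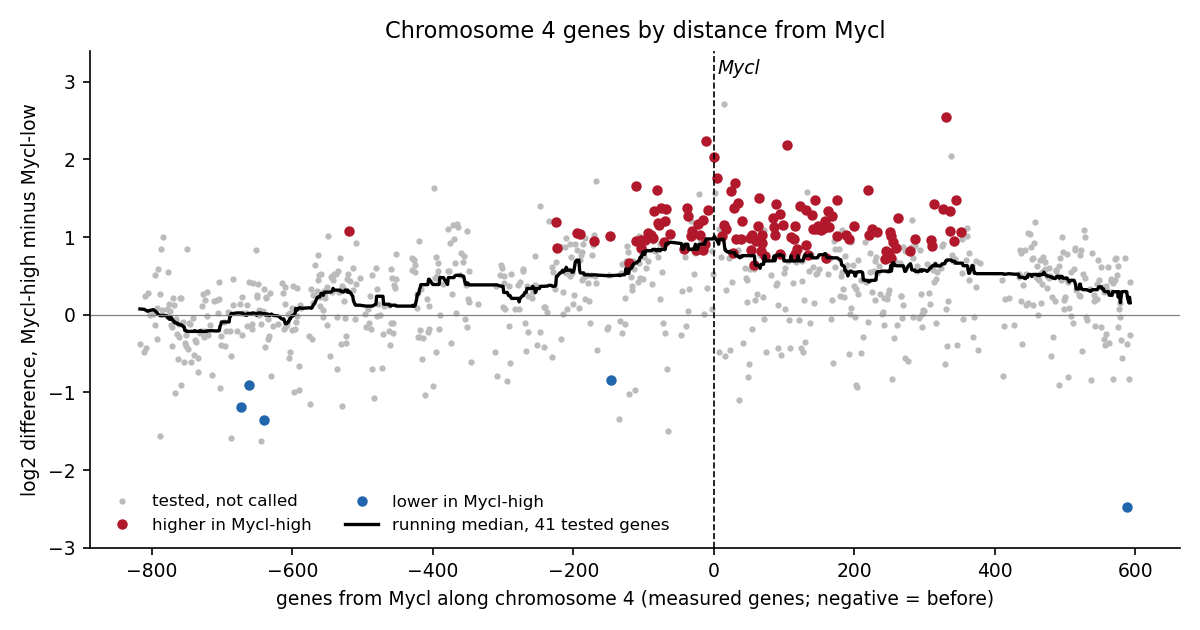
Log2 difference, Mycl-high minus Mycl-low, of every tested gene on chromosome 4 against its place in measured genes from Mycl (dashed line), with the running median in black. Genes called higher (red) crowd the region from about 260 genes before to 360 genes after Mycl, while genes called lower (blue) are 5 in all.

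Seen tumor by tumor, the stretch had different edges. Over the 72 tested genes within 60 of Mycl, the median distance from the 15-tumor median, on the log2 scale, was 0.42 in sgControl RPP tumor 7, 0.62 in sgKdm5a RPP tumor 5, 0.62 in sgKdm5a RPP tumor 2, 0.45 in sgKdm5a RPP tumor 3 and 0.50 in sgControl RPP tumor 6. The 5 Mycl-low tumors lay between -0.13 and -0.36. Of the 5 tumors in the middle of the ranking, sgControl RPP tumor 3 stood at 0.30 and the other 4 between -0.04 and -0.25, so the tumor just outside the cut looked like those inside it. These levels describe the Mycl-chosen groups and carry no test.

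At the far end of the chromosome the Mycl-high tumors parted. Over the genes 461 to 560 after Mycl, sgKdm5a RPP tumors 5 and 2 were still at 0.87 and 0.87, and sgControl RPP tumor 6 was at 0.36. In the same window sgKdm5a RPP tumor 3 was at -0.11 and sgControl RPP tumor 7 at -0.62. The middle sgControl RPP tumor 3 had 1.02 at 261 to 360 genes after Mycl, 0.96 at 361 to 460 and -0.53 at 461 to 560. Before Mycl, sgKdm5a RPP tumor 2 still had 0.52 in the window that begins 561 genes away, where the other Mycl-high tumors were between -0.18 and 0.20. DNA was not measured in the files used here, so whether gene copies differ along with these RNA levels was not tested.

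**Figure D3:**
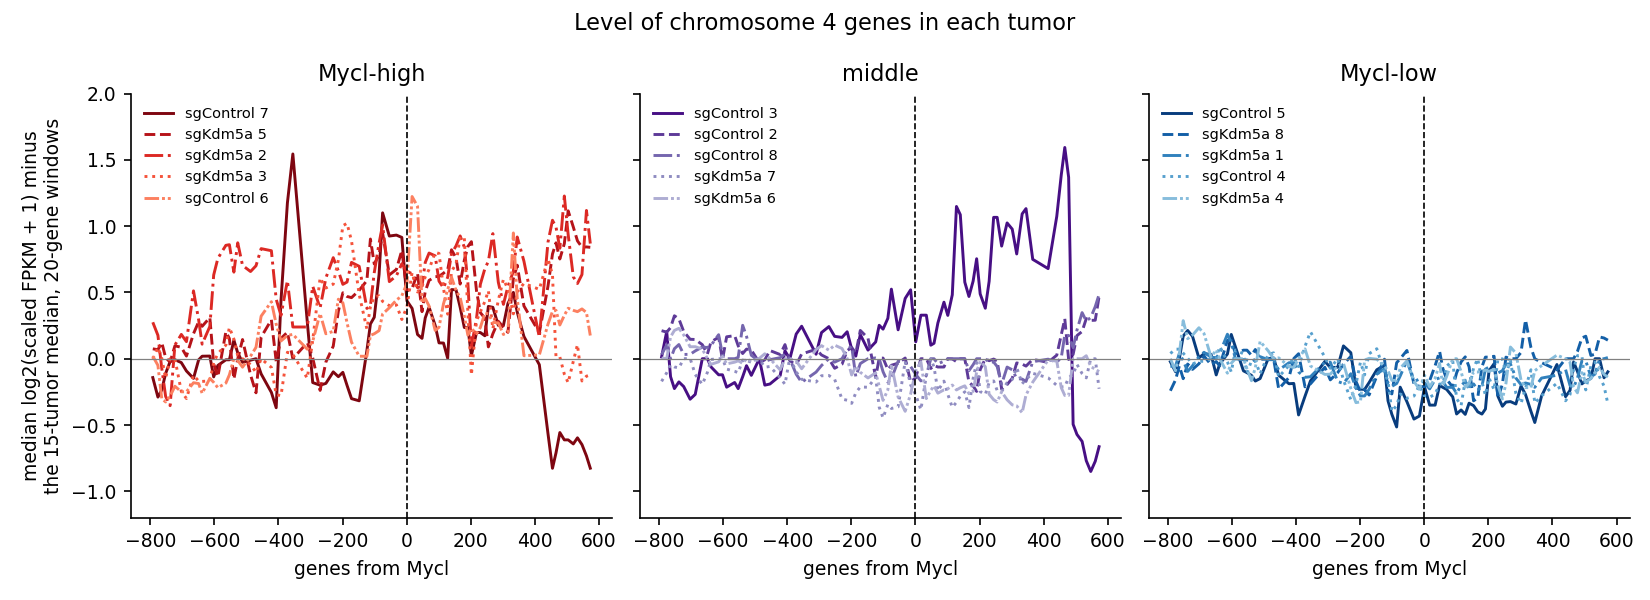
Median level of 20 successive tested genes in each tumor, as log2(scaled FPKM + 1) minus the 15-tumor median, along chromosome 4 by distance in genes from Mycl (dashed line), for Mycl-high, middle and Mycl-low tumors. All 5 Mycl-high tumors and the middle sgControl RPP tumor 3 lie above 0 near Mycl, and sgControl RPP tumors 7 and 3 drop below -0.5 at the right end.

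Genes of known function lay within the stretch. Marcksl1, which encodes an actin-binding MARCKS family protein, had 353, 403, 530, 331 and 283 in Mycl-high tumors, against 49.3, 62.8, 87.9, 120 and 106 in Mycl-low tumors (log2 difference 2.18 ± 0.26 SE, limma adjusted p = 0.00356). Stmn1, the microtubule-destabilizing protein stathmin, averaged 2859 ± 830.3 in Mycl-high and 944.6 ± 302.7 in Mycl-low tumors without overlap (SD, n = 5 each, limma adjusted p = 0.012). Sf3a3, a splicing factor subunit gene, averaged 148 ± 33.8 in Mycl-high and 47.6 ± 6.15 in Mycl-low tumors (SD, n = 5 each, limma adjusted p = 0.00356). Ybx1, a DNA- and RNA-binding protein gene, averaged 588 ± 153 in Mycl-high and 220.2 ± 19.7 in Mycl-low tumors (SD, n = 5 each, limma adjusted p = 0.00505). These 4 genes kept their call without any 1 tumor.

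The histone demethylase genes Kdm4a and Kdm1a (LSD1) lay in the stretch. Kdm1a stood at 113, 168, 161, 107 and 101 in Mycl-high tumors, against 40.7, 53.8, 57.8, 64.2 and 51.0 in Mycl-low tumors (log2 difference 1.25 ± 0.19 SE, limma adjusted p = 0.00998). Kdm4a averaged 32.5 ± 9.92 in Mycl-high and 11.5 ± 1.27 in Mycl-low tumors (SD, n = 5 each, limma adjusted p = 0.00862). Cell cycle genes there included Cdc20, the activator of the anaphase-promoting complex, at 167 ± 41.3 in Mycl-high and 65.7 ± 24.4 in Mycl-low tumors (SD, n = 5 each, limma adjusted p = 0.0178). E2f2, an S-phase transcription factor gene, averaged 32.0 ± 6.28 in Mycl-high and 16.3 ± 3.30 in Mycl-low tumors (SD, n = 5 each, limma adjusted p = 0.0267), and stood highest of all, at 72.2, in the middle sgControl RPP tumor 3. Its call was lost in 6 of the 10 runs without a tumor (adjusted p up to 0.0647).

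Padi3 and Col9a2 in the stretch are named by the size of their difference alone. Padi3, a peptidylarginine deiminase gene 330 genes after Mycl, had 1.88, 33.1, 6.38, 9.70 and 12.04 in Mycl-high tumors, against 0.266, 0.831, 0.0994, 3.68 and 0.267 in Mycl-low tumors (log2 difference 2.54, limma adjusted p = 0.0458). Col9a2, a collagen IX chain gene, averaged 37.8 ± 13.9 in Mycl-high and 8.97 ± 6.64 in Mycl-low tumors (SD, n = 5 each, limma adjusted p = 0.0496). Both lost the call in 8 of the 10 runs without a tumor. Padi3 reached the filter of 1 FPKM in 8 tumors only with Mycl-high tumors counted.

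Among the larger rises away from chromosome 4 were genes known from neurons. Dpysl4, a collapsin response mediator gene of growing axons, had 14.6, 4.19, 24.8, 7.26 and 9.30 in Mycl-high tumors, against 0.144, 0.0698, 0.760, 2.68 and 0.261 in Mycl-low tumors (log2 difference 2.82 ± 0.45 SE, limma adjusted p = 0.0116). Grm2, a metabotropic glutamate receptor gene, had 13.1, 15.2, 2.57, 9.11 and 14.5 in Mycl-high tumors, against 0.488, 0.491, 0.731, 1.55 and 0.204 in Mycl-low tumors (log2 difference 2.68 ± 0.40 SE, limma adjusted p = 0.0089). Dpysl4 and Grm2 did not overlap and kept their call without any 1 tumor. Both were under 1 in most Mycl-low tumors. They reached the filter of 1 FPKM in 8 tumors only with Mycl-high tumors counted, so the lack of overlap adds little.

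Crnde, a long noncoding RNA gene, differed by 2.06 (limma adjusted p = 0.0498) and lost its call without any of 9 tumors singly. Vwa2, a von Willebrand factor domain gene, averaged 6.74 ± 3.05 in Mycl-high and 1.19 ± 0.689 in Mycl-low tumors (SD, n = 5 each, limma adjusted p = 0.0267) and lost its call in 6 of the 10 runs. Tubulin genes, chosen after their values were seen, were higher too. Tubb5 averaged 1137 ± 100.4 in Mycl-high and 444.5 ± 157.6 in Mycl-low tumors, and Tuba1a 1392 ± 326.9 in Mycl-high and 532.2 ± 146.9 in Mycl-low tumors (SD, n = 5 each, limma adjusted p = 0.00854 and 0.012). Tuba1c (log2 difference 0.999, limma adjusted p = 0.016) and Tuba1b (0.91, limma adjusted p = 0.0251) moved the same way, though reads of such close paralogs can be shared between them. Tuba1b alone of the 4 lost its call without some tumors, 6 of 10.

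Genes tied to MYC-family activity stood a little higher as lists. Of 28 ribosome biogenesis genes, 27 lay above the median of all tested genes (0.03) and their median log2 difference was 0.42. Of the 28, 2 passed, against 2.06% of all tested genes. They were Nolc1, a nucleolar phosphoprotein gene (0.83, limma adjusted p = 0.0478), and Ppan, a ribosomal assembly gene (0.90, limma adjusted p = 0.0496). Of 25 genes of metabolism and translation known as MYC targets, 23 lay above that median (list median 0.43) and 3 passed. These were the arginine methyltransferase Prmt1 (0.94, limma adjusted p = 0.0116), the nucleoside diphosphate kinase Nme1 (0.86, limma adjusted p = 0.0469) and the nuclear transport GTPase Ran (0.60, limma adjusted p = 0.0496). Of 18 nucleotide synthesis genes, 15 lay above it (list median 0.33) and 2 passed. Ctps, a CTP synthase gene within the chromosome 4 stretch, averaged 92.9 ± 24.0 in Mycl-high and 39.9 ± 3.37 in Mycl-low tumors (SD, n = 5 each, limma adjusted p = 0.0116), and Paics, a purine synthesis gene, differed by 0.69 (limma adjusted p = 0.031). With the mouse number series as a covariate, limma called 0, 1 and 1 members of these lists. Prmt1 and Ctps kept their call without any 1 tumor, whereas Nolc1, Ppan, Nme1, Ran and Paics lost theirs in 8 or 9 of the 10 runs (adjusted p up to 0.113).

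The partners and relatives of L-MYC differed less. Of 13 genes of the MYC family and MAX network, leaving Mycl out, 1 passed. It was Zbtb17, which encodes the MYC partner MIZ1 and lies 352 genes after Mycl, at 13.8 ± 2.90 in Mycl-high and 5.98 ± 1.02 in Mycl-low tumors (SD, n = 5 each, limma adjusted p = 0.0139). Myc averaged 4.05 ± 0.774 in Mycl-high and 10.1 ± 9.38 in Mycl-low tumors, the second raised by 26.6 in sgKdm5a RPP tumor 8 (SD, n = 5 each, limma adjusted p = 0.234). Mycn was at 3.85 ± 3.84 in Mycl-high and 2.25 ± 1.38 in Mycl-low tumors (SD, n = 5 each, limma adjusted p = 0.601), with 10.6 in sgControl RPP tumor 7, which also had the most Mycl. Max, the shared partner, was at 33.1 ± 4.01 in Mycl-high and 28.3 ± 7.26 in Mycl-low tumors (SD, n = 5 each, limma adjusted p = 0.443).

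Proliferation lists had positive medians as well. Of 22 E2F and S-phase genes, 20 lay above the all-gene median (list median 0.40), and E2f2 and Mcm6 passed. Mcm6, a replicative helicase subunit gene, averaged 161 ± 19.1 in Mycl-high and 95.1 ± 13.01 in Mycl-low tumors (SD, n = 5 each, limma adjusted p = 0.0251) and lost its call in 6 of the 10 runs without a tumor. Of 20 mitosis genes, 19 lay above it (list median 0.36), and Cdc20, named above, passed (2.06% of all tested genes did in this direction). With macrophage, fibroblast and endothelial markers as a covariate, 12 of the 20 mitosis genes were below 0 (median -0.04) and 6 of the 22 E2F and S-phase genes (median 0.38), and limma called 0 in both lists. Mki67, the Ki-67 gene, averaged 87.8 ± 20.7 in Mycl-high and 72.2 ± 34.6 in Mycl-low tumors (SD, n = 5 each, limma adjusted p = 0.488).

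Of 25 neuroendocrine markers, 11 lay above the all-gene median (list median -0.17). By limma 1 was higher and 1 lower, against 2.06% and 1.13% of all tested genes. Cplx2, a complexin gene of vesicle release, had 278, 311, 243, 276 and 252 in Mycl-high tumors, against 114, 103, 120, 156 and 128 in Mycl-low tumors (log2 difference 1.13 ± 0.15 SE, limma adjusted p = 0.00505). Its groups did not overlap, and its call held without any 1 tumor. Chgb, a granin gene, had 71.6, 67.3, 58.0, 132 and 99.2 in Mycl-high tumors, against 95.7, 278, 396, 397 and 240 in Mycl-low tumors (log2 difference -1.61 ± 0.37 SE, limma adjusted p = 0.0431), and lost its call in 8 of the 10 runs. Of 15 neuroendocrine transcription factor genes tested, 12 lay above the all-gene median (list median 0.50) and 0 were called by limma (3 higher at an unadjusted p under 0.05). Among them, Nfib, known for amplification in mouse small cell lung tumors and also on chromosome 4, 371 genes before Mycl, had 146, 20.2, 70.3, 35.8 and 43.8 in Mycl-high tumors, against 27.6, 19.1, 25.7, 29.9 and 13.03 in Mycl-low tumors (log2 difference 1.16, limma adjusted p = 0.153). The 146 came from sgControl RPP tumor 7. In that tumor the median of the 20 successive genes centred nearest Nfib was 1.175 above the 15-tumor median. In the same window sgKdm5a RPP tumor 2, with the 70.3, was at 0.59, and the remaining tumors lay between -0.28 and 0.20. In the next window, centred 355 genes before Mycl, sgControl RPP tumor 7 was at 1.54 and the other 14 tumors between -0.19 and 0.24.

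Of 19 NOTCH pathway genes, 10 lay above the all-gene median (list median 0.06), and of 14 genes of YAP and the non-neuroendocrine state 1 did (list median -0.63). Neither list had a call by limma, with 3 higher and 5 lower NOTCH genes and 5 lower YAP-list genes at an unadjusted p under 0.05. The 17 glycolysis genes had a median of -0.26 and the 14 BCL2 family genes 0.15, with 0 calls by limma in both and 1 higher and 3 lower, and 3 higher, at an unadjusted p under 0.05.

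Kdm5a was at 7.73, 8.44, 20.04, 17.3 and 7.49 in Mycl-high tumors, against 7.36, 12.4, 11.4, 7.74 and 10.3 in Mycl-low tumors (log2 difference 0.19, 95% interval -0.44 to 0.82, limma adjusted p = 0.72), in the tumor order given at the start. Both values above 15 came from sgKdm5a RPP tumors, and an edited gene can still give RNA, so this checks no label. Rb1 (-0.15, limma adjusted p = 0.776) and Rbl2 (-0.10, limma adjusted p = 0.872) did not pass the test. The signs of these 3 small differences turned in several alternative analyses.

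**Figure D4:**
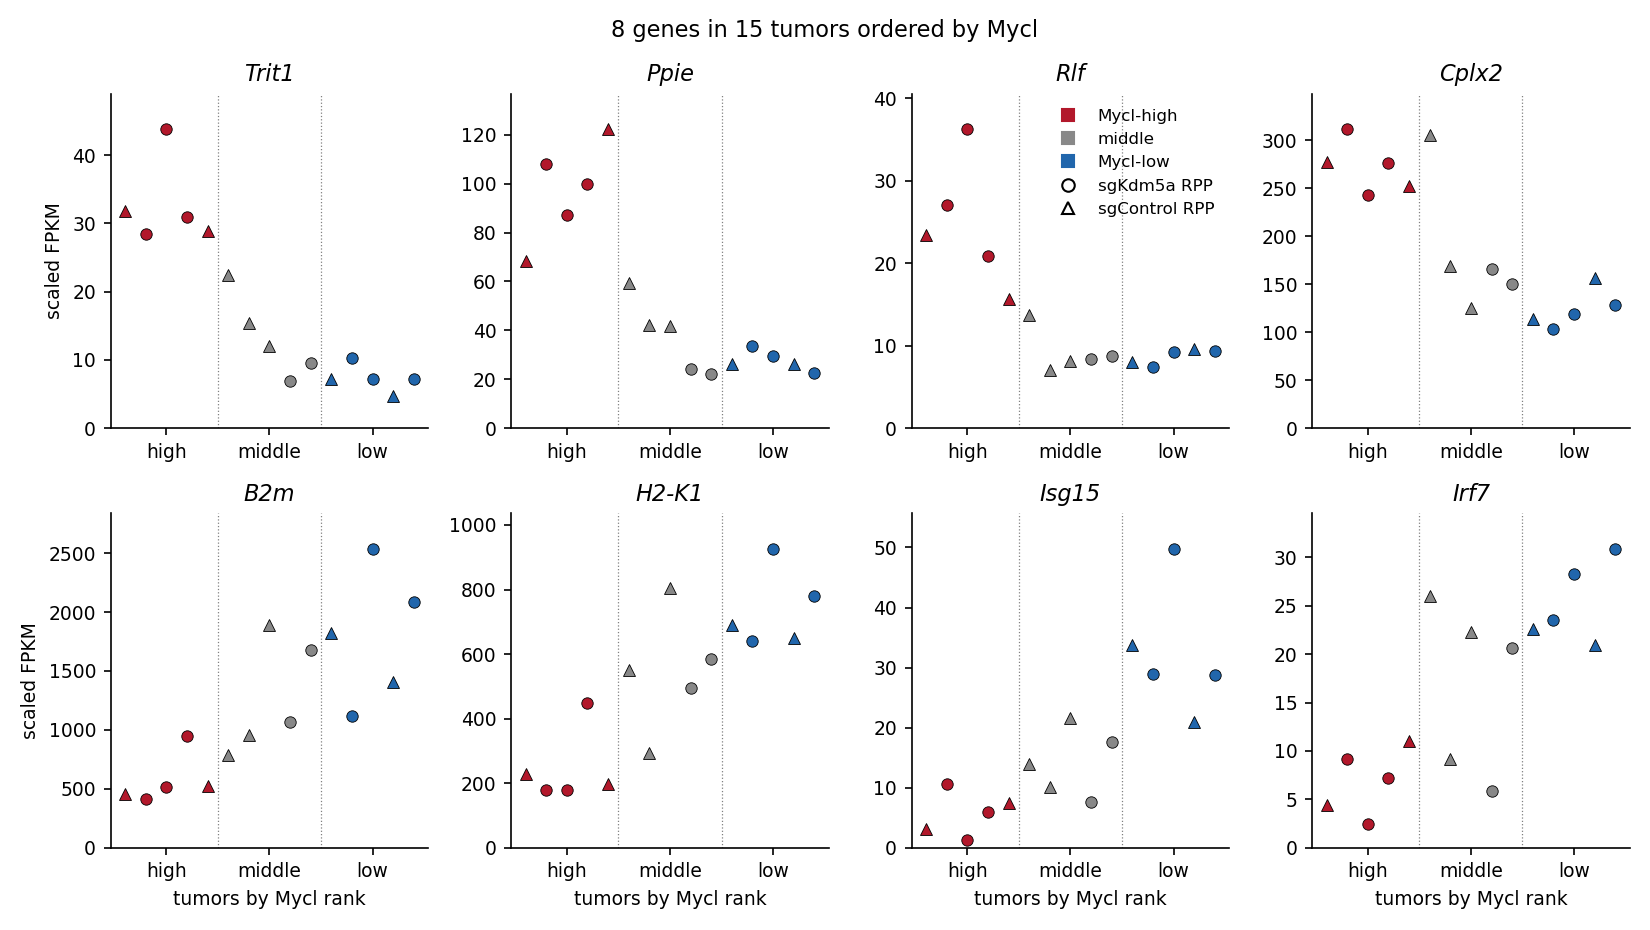
Scaled FPKM of 8 genes in 15 tumors ordered by Mycl, with Mycl-high on the left, the middle 5 in grey and Mycl-low on the right. Trit1, Ppie, Rlf and Cplx2 are higher in every Mycl-high than in every Mycl-low tumor, and B2m, H2-K1, Isg15 and Irf7 are lower in every Mycl-high than in every Mycl-low tumor.

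Among the 148 lower genes, antigen presentation and interferon-stimulated genes stood out by name. Class I molecules display peptides from inside the cell to CD8 T cells, and interferons raise both their production and that of many antiviral genes. Of 14 class I antigen presentation genes, all lay below the all-gene median (list median -0.82) and 5 were lower, against 1.13% of all genes. B2m, the light chain shared by class I molecules, had 454.7, 412.5, 515.2, 945.4 and 526.7 in Mycl-high tumors, against 1819, 1115, 2535, 1404 and 2086 in Mycl-low tumors (log2 difference -1.66 ± 0.27 SE, limma adjusted p = 0.0116). No Mycl-high tumor reached the lowest Mycl-low tumor, an arrangement that 2.59% of all tested genes showed in this direction.

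H2-K1, a classical class I heavy chain gene, had 228, 179, 178, 449 and 199 in Mycl-high tumors, against 691, 642, 926, 649 and 779 in Mycl-low tumors (log2 difference -1.66 ± 0.25 SE, limma adjusted p = 0.00862). Tapbp, the tapasin gene that loads peptides onto class I, averaged 27.4 ± 3.77 in Mycl-high and 71.8 ± 19.5 in Mycl-low tumors (SD, n = 5 each, limma adjusted p = 0.00862). Tap2, a peptide transporter subunit gene, averaged 13.01 ± 3.25 in Mycl-high and 33.5 ± 9.66 in Mycl-low tumors (SD, n = 5 each, limma adjusted p = 0.0136). These 4 kept their call without any 1 tumor. Erap1, the peptide-trimming aminopeptidase gene, differed by -0.76 (limma adjusted p = 0.0184) and lost its call without sgKdm5a RPP tumor 4 (adjusted p = 0.0571). H2-D1, the other classical heavy chain, averaged 484 ± 252.7 in Mycl-high and 813 ± 109 in Mycl-low tumors (SD, n = 5 each, limma adjusted p = 0.104). The summed level of the 14 genes was 1399 to 3172 in Mycl-high tumors, against 3810 to 5416 in Mycl-low tumors. The heavy chain copies H2-Q2 and H2-Bl, whose reads can be shared with other H2 genes, differed by -2.54 and -2.16 (limma adjusted p = 0.038 and 0.0262) and lost their calls in 7 of the 10 runs without a tumor.

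Of 43 interferon-stimulated genes tested, 18 were lower and 0 higher by limma, against 1.13% and 2.06% of all tested genes. In all, 42 lay below the all-gene median (list median -1.18). The list was drawn up after these values were seen, so its counts and median describe these data and are no support. Isg15, a ubiquitin-like modifier gene, lies 589 genes after Mycl near the end of chromosome 4, and was nonetheless lower. It had 3.19, 10.6, 1.30, 5.93 and 7.46 in Mycl-high tumors, against 33.7, 28.9, 49.8, 20.99 and 28.7 in Mycl-low tumors (log2 difference -2.47 ± 0.39 SE, limma adjusted p = 0.0116). Irf7, the regulator of type I interferon, averaged 6.88 ± 3.46 in Mycl-high and 25.2 ± 4.15 in Mycl-low tumors (SD, n = 5 each, limma adjusted p = 0.0124). Oasl2 (-1.77, limma adjusted p = 0.00932), an antiviral oligoadenylate synthetase-like gene, and Irgm1 (-1.45, limma adjusted p = 0.0136), an immunity-related GTPase gene, were also lower. Irf7, Oasl2, Isg15 and Irgm1 kept their call without any 1 tumor, whereas Ifit1, an antiviral tetratricopeptide gene (-1.98, limma adjusted p = 0.0184), lost it without sgKdm5a RPP tumor 1 or 4 (adjusted p up to 0.0577). The count of lower members fell to 6 without either of those tumors and ran to 22 without sgControl RPP tumor 4. It was 7 without sgControl RPP tumor 7 or sgKdm5a RPP tumor 2, 8 without sgControl RPP tumor 6 or 5, 9 without sgKdm5a RPP tumor 8, 10 without sgKdm5a RPP tumor 5, 11 without sgKdm5a RPP tumor 3 and 8 with the mouse number series as a covariate.

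Some of the lower interferon genes, and B2m of the class I list, hold a known response element near their start. In the 250 bases before each RefSeq start site of assembly GRCm38.p6, the letters GAAA, any 2 bases and GAAA again, on either strand, the core of the interferon-stimulated response element, were found for 15.6% of 109 lower genes with a promoter in the table, against 3.1% of 9817 tested genes. They were found for 8 of the 17 lower members of the class I and interferon lists that had an entry. Over all tested members with an entry, lower or not, the share was 48.4% of 31 interferon-stimulated genes and 8.33% of 12 class I genes. The lower members of the interferon list were not counted apart from those of the class I list, so whether the element marks them was not tested. The 60 bases around the match nearest the start are shown for 4 of the 8 genes, B2m and the interferon genes named above. They run 5′ to 3′ on the gene's strand, with matches in capitals.
B2m, plus strand, chr2:122147523-122147582: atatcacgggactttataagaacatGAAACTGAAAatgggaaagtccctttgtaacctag
Isg15, minus strand, chr4:156200850-156200909: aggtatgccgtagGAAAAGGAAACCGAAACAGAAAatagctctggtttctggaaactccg
Irgm1, minus strand, chr11:48871421-48871480: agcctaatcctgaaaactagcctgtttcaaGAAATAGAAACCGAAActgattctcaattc
Ifit1, plus strand, chr19:34640779-34640838: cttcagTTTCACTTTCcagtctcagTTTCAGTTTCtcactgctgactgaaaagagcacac
B2m held 1 match, Irgm1 and Ifit1 2 each, those of Ifit1 on the opposite strand, and Isg15 3 that overlap. The E-box letters CACGTG were found for 17.6% of the 102 higher genes off chromosome 4 and 8.60% of the 93 on it with an entry, against 9.86% of all tested genes. The share was 4.35% of 23 ribosome biogenesis genes, 25% of 12 class I genes and 6.42% of the 109 lower genes. A match shows only that the letters are there.

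Other large falls were of mixed function. Plekha2, a phosphoinositide-binding adaptor gene named because it had the smallest p of all, averaged 1.69 ± 0.333 in Mycl-high and 10.4 ± 1.26 in Mycl-low tumors (SD, n = 5 each, limma adjusted p = 0.000782). Spp1, the osteopontin gene, had 20.2, 29.1, 22.1, 89.5 and 29.6 in Mycl-high tumors, against 111, 388, 179, 162 and 121 in Mycl-low tumors (log2 difference -2.38, limma adjusted p = 0.016). Pigr, the receptor that carries immunoglobulins across epithelium, averaged 4.32 ± 1.29 in Mycl-high and 25.1 ± 15.9 in Mycl-low tumors (SD, n = 5 each, limma adjusted p = 0.0118). Apol9a and Apol9b, near-identical apolipoprotein L genes whose reads can be shared, differed by -2.10 and -2.15 (limma adjusted p = 0.00356 and 0.00587). These 5 genes kept their call without any 1 tumor. Etv1, an ETS transcription factor gene (-2.37, limma adjusted p = 0.0273), Pde11a, a phosphodiesterase gene (-2.30, limma adjusted p = 0.0267), and Tgtp2, an interferon-inducible GTPase gene (-2.35, limma adjusted p = 0.0332), lost theirs in 6, 6 and 7 of the 10 runs. Pde11a reached the filter of 1 FPKM in 8 tumors only with Mycl-low tumors counted.

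Markers of normal lung and stroma had negative differences, with 0 calls by limma. All 11 fibroblast genes (list median -1.41), all 14 endothelial genes (-0.70), all 9 alveolar type 2 genes (-1.24), all 8 alveolar type 1 genes (-0.54) and all 6 club cell genes (-2.03) lay below the all-gene median. At an unadjusted p under 0.05, 2, 4, 0, 0 and 2 of them were lower. Within the mouse number series 190 to 238 alone the alveolar lists turned, with a median of 0.48 for type 2 genes (2 of 9 below 0) and 0.60 for type 1 genes (0 of 8 below 0), while the fibroblast, endothelial and club cell medians were -0.71, -0.21 and -0.23. The type 1 median was also positive without sgControl RPP tumor 5 (0.07), for the top 4 against the bottom 4 (0.13) and with the stromal markers as a covariate (0.32). Summed fibroblast markers were 74.9 to 495 in Mycl-high tumors, against 119 to 1321 in Mycl-low tumors, and summed alveolar type 2 markers 56.3 to 1241 in Mycl-high tumors, against 66.3 to 5755 in Mycl-low tumors. In bulk tumors, fewer cells of a type and less RNA per cell cannot be told apart. Macrophage markers differed little (15 tested, median -0.13, 3 above the all-gene median, sums 495 to 1087 in Mycl-high and 504 to 2399 in Mycl-low tumors). T and NK cell markers summed to 10.2 to 14.9 in Mycl-high and 10.9 to 50.6 in Mycl-low tumors (3 of 14 tested). B and plasma cell markers summed to 19.5 to 131.5 in Mycl-high and 23.3 to 726 in Mycl-low tumors (4 of 9 tested), and neutrophil markers to 6.05 to 19.2 in Mycl-high and 4.24 to 19.9 in Mycl-low tumors (3 of 9 tested).

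The class I and interferon lists were also measured with markers of some of these cells held in the fit. With the mean level of macrophage, fibroblast and endothelial markers as a covariate, all 14 class I genes still had negative differences (median -0.89) and H2-K1 alone was called, and 42 of the 43 interferon-stimulated genes had negative differences (median -1.02) with Isg15 and Irf7 called. Over all genes that fit called 43 higher and 33 lower, with 7 residual degrees of freedom. Alveolar, club, ciliated, T, NK, B, plasma and erythroid cells and neutrophils were not in the covariate, and their part in the result was not tested. Ciliated markers summed to 35.2 to 81.4 in Mycl-high and 77.1 to 580.5 in Mycl-low tumors, and erythroid markers to 180.2 to 1629 in Mycl-high and 487 to 1747 in Mycl-low tumors (medians -1.11 and -0.50, 6 and 4 tested, 0 called by limma, 4 and 1 lower at an unadjusted p under 0.05).

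**Figure D5:**
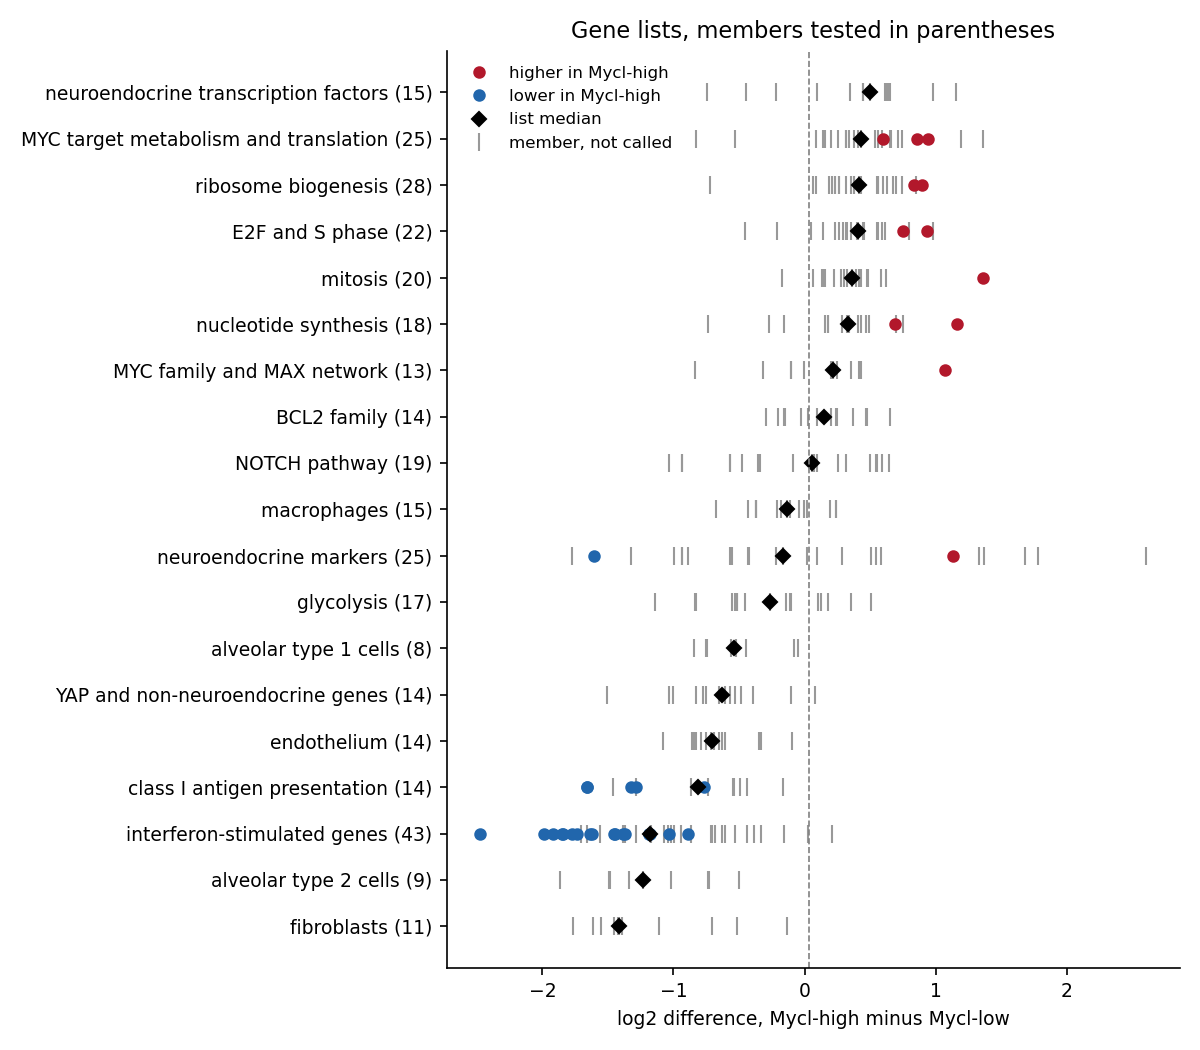
Log2 difference, Mycl-high minus Mycl-low, of each tested member of the lists with at least 8 tested members (number in parentheses), with list medians as diamonds and called members as filled circles. Ribosome, MYC target, nucleotide and cell cycle lists have medians of 0.33 to 0.43, class I and interferon lists -0.82 and -1.18, and the dashed line is the median of all tested genes.

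The 5 tumors in the middle did not enter the comparison of 5 against 5. On a scale from 0 for the Mycl-low mean to 1 for the Mycl-high mean, the median position over the 270 higher genes was 0.83 in sgControl RPP tumor 3, 0.42 in sgControl RPP tumor 2, 0.27 in sgControl RPP tumor 8, 0.03 in sgKdm5a RPP tumor 7 and -0.02 in sgKdm5a RPP tumor 6. Over the 148 lower genes the positions were 0.79, 0.56, 0.24, 0.28 and 0.08 in the same tumors. The order over the higher genes is that of their Mycl rank. Among these 5, however, every sgControl RPP tumor ranks above every sgKdm5a RPP tumor, so rank and sgRNA label go together. Of the 270 higher genes, 121 lie on chromosome 4 with Mycl. With all 15 tumors and the middle as a group of its own, 279 genes were higher and 165 lower in Mycl-high tumors.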

How the data were processed

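Tumor RNA went into stranded total-RNA libraries, per the labels' protocols. Genome build mm9, Cufflinks 2.2.1 and STAR 2.5.1b stand in the submitters' processing notes. The deposited values were read as FPKM, a unit inferred from the values, so total reads are unknown and no count model was used. Of 24043 entries, 27 turned into dates were left out. The 15 libraries were scaled by their medians, and 13103 genes that reached 1 FPKM in 8 or more of them, Mycl aside, were tested on log2(scaled FPKM + 1), which understates changes of low genes. A gene low on 1 side can reach this filter through the other side. The test of 5 against 5 was limma's (version 3.58.1, R 4.3.3, trend and robust), with Benjamini-Hochberg adjustment over all tested genes, a threshold of 0.05 and 95% intervals. The script was tested on simulated data. Errors are the spread between mice, or SE where so named. Single genes also had a two-sided exact permutation test (scipy 1.17.1).

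The members, lists and rules were chosen with earlier results of these data known. Named genes are the 10 neighbours on each side of Mycl, the 10 largest called differences each way with a mean of at least 1, up to 4 called members of each list, and a set of MYC-family, neuroendocrine and engineered genes. Not every gene so named, nor every gene the guides target, is reported here. Plekha2, Erap1, H2-D1, Ifit1, Irf7, Oasl2, Irgm1, Kdm4a, Kdm1a, Stmn1, Sf3a3, Ybx1 and the tubulin genes were chosen after their values were seen. Of the tested genes, 99.5% were placed on a chromosome. Promoters are from RefSeq, assembly GRCm38.p6. Alternatives changed the scaling, pseudocount, filter, sample weights, covariates, the tumors compared and a replicate block, and left out each tumor in turn. The interferon list, the wider windows on chromosome 4, the counts of list members under each alternative and the interaction with sgRNA label were added after seeing the data.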

Additional observations from a re-analysis of the deposited data

Results flagged for a closer look

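Among 72 named genes in both groups, 9 values lay far from the other 4 of their group on the log2 scale by Dixon's test, which chance gives in about 1 group in 20 of the 144 looked at. In Mycl-high tumors, sgKdm5a RPP tumor 3 was lowest for Mfsd2a (1.14, next 2.2) and Irgm1 (4.63, next 7.16) and highest for Spp1 (89.5, next 29.6) and H2-K1 (449, next 228). In the same group sgKdm5a RPP tumor 2 was highest for Trit1 (43.8, next 31.85) and lowest for Ifit1 (1.45, next 3.79). In Mycl-low tumors, sgControl RPP tumor 4 was highest for Bmp8b (3.49, next 0.677), sgKdm5a RPP tumor 1 was highest for Neurod1 (9.83, next 0.334), and sgControl RPP tumor 5 was lowest for Sf3a3 (36.8, next 49.1). All values are scaled FPKM.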

How the results depend on the processing

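The direction of all 418 called genes held in all 26 alternatives, most of which reuse the tumors that gave the calls, while the counts moved. Higher and lower genes numbered 270 and 148 as reported. They were 144 and 61 with no filter on low values, 603 and 418 with sample weights, 141 and 64 with the mouse number series as a covariate, 0 and 0 in mice 190 to 238 alone, 43 and 33 with stromal lists as a covariate, 406 and 257 with Mycl as a continuous value, 65 and 36 for the top 4 against the bottom 4, 897 and 518 for the top 7 against the bottom 7, and 50 and 21 with all 16 tumors ranked. Lower genes were 97 on multiples of the library median. Leaving out 1 tumor gave 87 to 382 higher and 34 to 294 lower genes. With the tumor number of the titles as a replicate block, 260 were higher and 146 lower (correlation within a number 0.0581). These numbers mark no shared animal or day in the labels, so they share a number only. Of 53 called genes named, 33 kept the call without any 1 tumor.

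Differences that were not called turned sign in some alternatives, and the cause was not tested. Leaving out 1 tumor gave -0.72 to 0.076 for Chga, -0.028 to 0.17 for Ppt1, -0.31 to 0.070 for Rb1, -0.26 to 0.12 for Rbl2 and -0.0027 to 0.32 for Kdm5a. Kdm5a was -0.070 with sample weights, -0.058 for the top 7 and -0.010 with all 16 tumors. Rbl2 was 0.28 with sample weights, Rb1 0.074 and Mycn -0.20 for the top 7, Mki67 -0.16 with all 16 tumors, and Ppt1 -0.0060 unscaled and -0.012 with quantile normalization.

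Depth is unknown, 5 tumors a side limit the precision, and genes near the threshold depend on single tumors.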

Other observations

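Chromosomes 18 and 6 had calls in 1 direction only. On chromosome 18, 15 of 327 tested genes were higher in Mycl-high tumors (4.59%) and 0 lower by limma (93 higher and 12 lower at an unadjusted p under 0.05). The chromosome's median level, relative to the 15-tumor median on the log2 scale, was 0.02 to 0.26 in Mycl-high tumors, against -0.55 in sgKdm5a RPP tumor 8, -0.41 in sgKdm5a RPP tumor 1, -0.17 in sgKdm5a RPP tumor 4, 0.13 in sgControl RPP tumor 5 and 0.08 in sgControl RPP tumor 4 of the Mycl-low tumors. On chromosome 6, 14 of 638 tested genes were lower (2.19%) and 0 higher by limma (106 lower and 23 higher at an unadjusted p under 0.05). Of all tested genes, 1.13% were lower and 2.06% higher. The share of lower genes was 2.94% on chromosome 17, where H2-K1, Tapbp and Tap2 lie, and 2.38% on chromosome X. The median level of chromosome X was 0.83 in sgControl RPP tumor 4 and 0.28 in sgKdm5a RPP tumor 4 of the Mycl-low tumors. In the remaining tumors it lay between -0.13 and 0.03. The median level of chromosome 6 was -0.60 in the Mycl-high sgKdm5a RPP tumor 5 and between -0.03 and 0.07 in the other 14 tumors. DNA was not measured in the files used here, and what part single tumors have in these counts was not tested.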
